A study of Mus musculus with 4 samples.

Results

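Gelsolin, Enc1 and 8 abundant genes of the non-muscle actin, intermediate filament and lamina cytoskeleton were followed in cells of mouse subcutaneous fat that were positive or negative for Mmp3. The 10 genes were named by symbol (Gsn, Enc1, Actb, Actg1, Flna, Actn1, Actn4, Tpm4, Vim and Lmna). They were 10 of 35580 genes in the deposited tables and 10 of the 14185 genes with enough counts to be tested, so none of the 10 was lost to the filter on low counts. They were picked with their levels in this contrast already known, chiefly those of Gsn and Enc1. Their differences between the groups are therefore a description. P-values and calls given for them below are part of that description and do not serve as tests of these genes.

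Both groups came from the stromal vascular fraction of subcutaneous adipose tissue of wild-type (WT) C57BL/6 mice: Mmp3-positive cells in 2 libraries and Mmp3-negative cells in 2, with 4 in all. The stromal vascular fraction is what remains of adipose tissue once the fat-laden cells are removed, and it holds fibroblast-like stromal cells, mural, endothelial and immune cells. Mmp3 encodes stromelysin-1, a secreted protease of the extracellular matrix. How the cells were separated, other than by a coded reagent, and the age and sex of the mice are not given in the sources used here. Nor did the labels say that the libraries of a group came from separate animals, so a p-value here reflects the spread among these 4 samples alone, and that spread may be technical.

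Actin exists as monomers and as filaments that cells build, cut, cap and cross-link. Gelsolin is a calcium-dependent protein that severs filaments and caps their ends. Actb and Actg1 encode the cytoplasmic beta- and gamma-actins, filamin A (Flna) and the alpha-actinins (Actn1, Actn4) tie filaments to each other, and tropomyosin 4 (Tpm4) lies along them. Enc1 encodes a kelch-repeat protein that binds actin and can serve as a substrate adaptor of cullin-3 ubiquitin ligases. Vimentin (Vim) forms the intermediate filaments of mesenchymal cells, and Lmna encodes the A-type lamins of the nuclear lamina. In adipose tissue the actin cytoskeleton is known for its link to progenitor fate, since monomeric actin holds the SRF coactivator Mrtfa in the cytoplasm and adipocyte conversion involves loss of actin stress fibres.

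The libraries held 17693755 to 20286221 estimated counts, and at this depth each of the 10 genes received at least 2700 counts in every library. Mmp3 had 4161 and 3409 CPM (counts relative to the TMM-adjusted library total) in the Mmp3-positive libraries, against 106 and 131 CPM in the Mmp3-negative libraries. It was 32.0-fold higher, a log2 fold change of 5.0 (SE 0.21), with an adjusted p of 0.00793 by edgeR's quasi-likelihood test, so the labels and the gene that names them were in the same order. The labelled cell type was checked against marker genes. Summed over 8 stromal fibroblast markers, the level was 18256 and 25107 CPM in Mmp3-positive libraries and 14856 and 22589 CPM in Mmp3-negative libraries. Most of that sum came from Col1a1, Col1a2 and Col3a1, whose groups overlapped. The other 5 of the 8 did not overlap between the groups, each higher in Mmp3-positive cells, where 22.5% of all genes tested were separated upward. Among these 5, Pdgfra had 1657 and 1687 CPM against 929 and 1063 CPM, a log2 fold change of 0.75 (adjusted p 0.48 by edgeR). The sums of the other lists were low in all libraries and lower in Mmp3-positive ones. Of the genes tested, 9 of 12 pericyte and smooth muscle markers and 5 of 7 endothelial markers were separated downward. So were 7 of 9 macrophage and leukocyte and 1 of 2 adipocyte markers, where 17.3% of all genes were separated downward. In these lists 0 were separated upward. Pericyte and smooth muscle markers (12 genes) summed to 102 and 98 CPM in Mmp3-positive libraries, against 772 and 689 CPM in Mmp3-negative libraries. Lmod1 was at 0 in both Mmp3-positive libraries, whereas Rgs5, Kcnj8 and Cnn1 overlapped (Rgs5 at 1.58 and 3.92 CPM against 0 and 4.09 CPM). Endothelial markers (9 genes) summed to 108 and 107 CPM against 264 and 188 CPM. Pecam1 was the largest part, at 81.7 and 58.7 CPM against 130.3 and 107 CPM. Cldn5 was at 0 in both Mmp3-positive libraries, against 10.4 and 0.0577 CPM. Cdh5 and Tek overlapped (Cdh5 at 2.79 and 10.2 CPM against 9.49 and 0 CPM). Emcn was at 0 in all but 1 Mmp3-positive library (3.21 CPM). Macrophage and leukocyte markers (9 genes) summed to 34.9 and 28.0 CPM against 278 and 191 CPM. Adgre1 and Laptm5 were at 0 in both Mmp3-positive libraries, whereas C1qa and C1qb overlapped (C1qa at 5.05 and 2.75 CPM against 16.7 and 0 CPM). Adipocyte markers (5 genes) summed to 73.0 and 93.1 CPM against 133 and 190.4 CPM, most of it from Plin4 (61.5 and 83.8 CPM against 123 and 169.6 CPM). Plin1 overlapped, at 8.84 and 9.27 CPM against 9.06 and 20.8 CPM, Cidec and Lep were at 0 in all 4 libraries, and Adipoq was at 0 in all but 1 Mmp3-positive library (2.63 CPM). Fewer cells of a type and less RNA per cell cannot be told apart in such bulk samples.

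**Figure D1:**
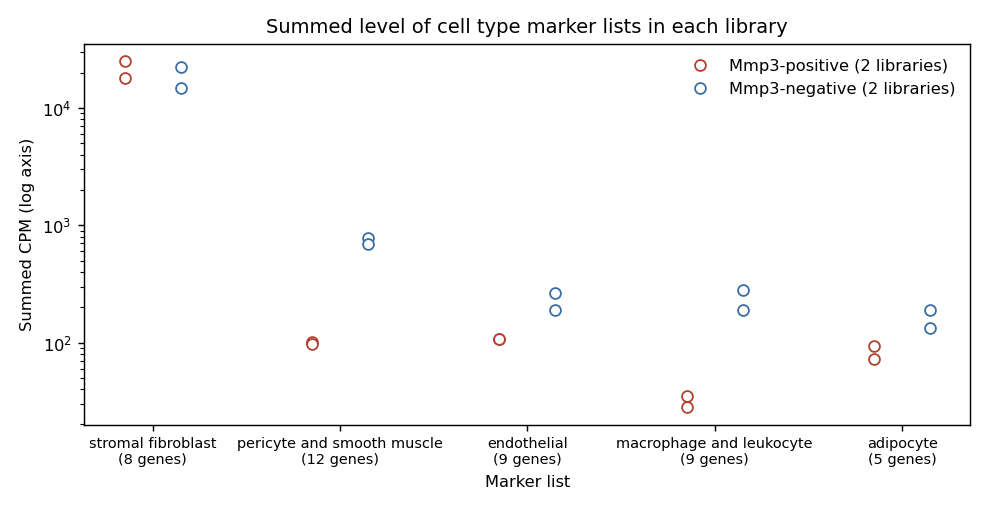
Summed CPM (log axis) of 5 cell type marker lists in the Mmp3-positive (red, left) and Mmp3-negative (blue, right) libraries, 1 point per library. The sum of the fibroblast markers, mostly collagens, overlaps between the groups, although 5 of the 8 genes are separated upward. Pericyte and smooth muscle markers lie at 102 and 98 CPM in Mmp3-positive libraries against 772 and 689 CPM in Mmp3-negative libraries.

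Together the 10 genes took up 2.30% and 2.36% of all estimated counts in the Mmp3-positive libraries, against 1.63% and 1.79% in the Mmp3-negative libraries. The share averaged 2.33% ± 0.0389 in Mmp3-positive cells and 1.71% ± 0.111 in Mmp3-negative cells (SD, n = 2 each). It was higher in both Mmp3-positive libraries than in either Mmp3-negative one. With protein-coding genes alone as the total it was 2.38% and 2.44%, against 1.75% and 1.85%. Gsn alone held 1.06% and 1.11% of all estimated counts in Mmp3-positive libraries, against 0.60% and 0.73% in Mmp3-negative libraries. As Gsn and the others were chosen on this contrast, the difference in the sum is only a description. Levels of different genes can only be compared per length, for which TPM values (counts divided by transcript length and scaled to a common total) were used as a share of the summed TPM of the 10 genes within a library. In Mmp3-positive libraries Gsn led with 29.0% and 29.2% of that sum, followed by Vim (25.2% and 27.6%), Actb (24.4% and 24.1%) and Actg1 (6.65% and 5.34%). Tpm4 (4.47% and 4.70%), Lmna (3.80% and 3.77%), Actn4 (2.36% and 1.69%), Flna (2.21% and 1.96%), Actn1 (1.53% and 1.22%) and Enc1 (0.419% and 0.428%) came after them. Of the neighbours in this order, Actn4 and Flna did not differ beyond their spread. In Mmp3-negative libraries Vim led with 28.7% and 28.5%, and Actb (23.4% and 24.7%) and Gsn (22.9% and 23.8%) overlapped behind it. Lmna (4.71% and 4.56%) overlapped with Tpm4 (4.59% and 2.82%), Flna (3.07% and 3.08%) overlapped with Actn4 (2.30% and 3.47%), and Enc1 was again the lowest, at 0.319% and 0.267%. These ranks leaned on short annotated transcripts for some genes, as given for Vim and Tpm4 below. Full-length Actb-201 held only 33.1% and 30.4% of Actb TPM in Mmp3-positive libraries and 38.7% and 23.3% in Mmp3-negative libraries. Gsn-201 held 97.6% or more of Gsn TPM, so the rank of Gsn against Vim and Actb is uncertain.

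Across all genes edgeR called 1 gene higher and 2 genes lower at an adjusted p of 0.05, which is 0.00705% and 0.0141% of the genes tested. None of the 10 genes was among them (0 of 10), while 5 of the 10 had an unadjusted p under 0.05, all higher, against 5.62% of all genes tested (8.87% in either direction). The DESeq2 Wald test called the same number, 5 (Actb, Actn1, Enc1, Gsn and Tpm4), against 5.46% of all genes. With edgeR, leaving out Mmp3-negative replicate 1 gave 2 calls among the 10 (Actb and Gsn) and 234 higher genes in all, and leaving out Mmp3-negative replicate 2 gave 1 (Gsn) and 237. In 6 of the 10 the groups did not overlap in CPM, each with Mmp3-positive cells higher, and in 0 of 10 were they lower, where 22.5% of all genes were separated upward and 17.3% downward (39.8% either way). The median log2 fold change was 0.32 over the 10 genes and 0.02 over all genes tested. The genes were chosen on this contrast, so nothing is read from these counts.

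**Figure D2:**
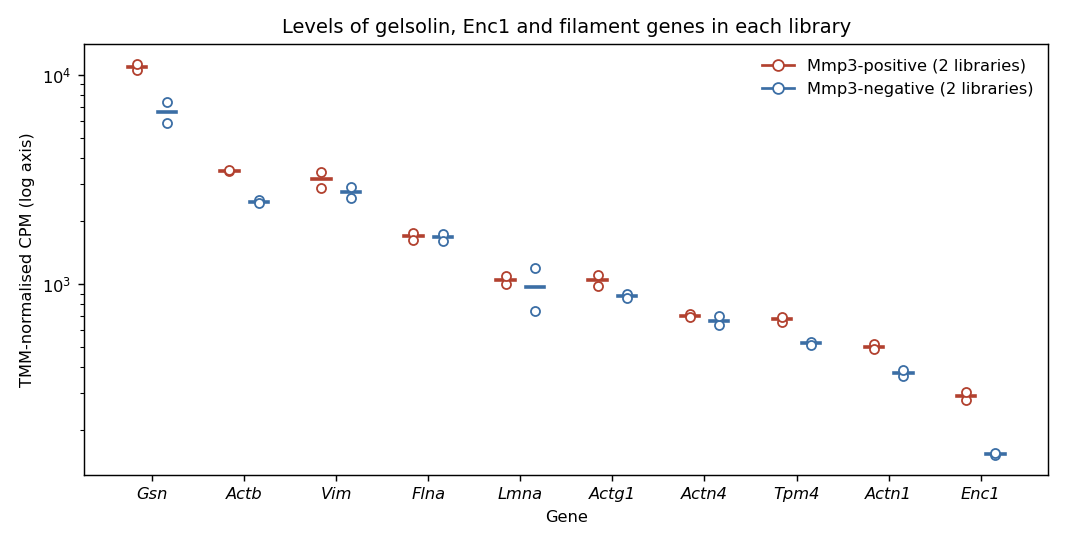
Normalised CPM (log axis) of the 10 genes in the Mmp3-positive (red, left) and Mmp3-negative (blue, right) libraries, with 1 circle per library and a bar at the mean of 2 libraries. Gsn, Enc1, Actb, Actg1, Actn1 and Tpm4 are separated between the groups, whereas Flna, Actn4, Vim and Lmna overlap.

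The level of Gsn was 10508 and 11302 CPM in Mmp3-positive libraries, against 5909 and 7393 CPM in Mmp3-negative libraries, and both Mmp3-positive libraries lay above both others. It averaged 10905 ± 562 CPM in Mmp3-positive cells and 6651 ± 1049.6 CPM in Mmp3-negative cells (SD, n = 2 each), a 1.64-fold difference and a log2 fold change of 0.71 (SE 0.16). Set against beta-actin within each library, Gsn stood at 1.19 and 1.21 times the TPM of Actb in Mmp3-positive libraries and at 0.977 and 0.963 times in Mmp3-negative libraries, without overlap. The TPM of Actb leaned on transcripts shorter than the full-length one, as given above. As a ratio of counts, which is not corrected for length and is read only between libraries, the groups overlapped, at 3.04 and 3.24 in Mmp3-positive libraries and 2.35 and 3.05 in Mmp3-negative libraries. Leaving out Mmp3-negative replicate 1 gave a log2 fold change of 0.56, and leaving out Mmp3-negative replicate 2 gave 0.89.

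The Gsn gene (chr2:35256380-35307892, plus strand, GRCm38) has upstream and downstream starts that give different proteins. Gelsolin is made as a cytoplasmic protein and as a longer secreted one that circulates in plasma, where it clears actin released from damaged cells. The longer coding sequence is that of transcript Gsn-201, which begins at the downstream start and has 2340 coding bases without the stop codon. Gsn-205, from the upstream start, has 2193, and its coding sequence with the stop codon is exactly the end of that of Gsn-201. The bases that only Gsn-201 codes, the leader of the secreted form, are shown here because they tell the forms apart, with both start codons in capitals (the first is that of Gsn-201 and the last that of Gsn-205). They lie in coding exons at chr2:35282464-35282601 and chr2:35283905-35283916.
Gsn-201: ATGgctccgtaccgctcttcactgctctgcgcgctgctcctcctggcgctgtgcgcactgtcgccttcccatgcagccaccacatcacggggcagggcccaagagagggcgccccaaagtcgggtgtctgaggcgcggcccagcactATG

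Almost all Gsn counts were assigned to Gsn-201. It held 99.4% and 99.9% of the gene's estimated counts in Mmp3-positive libraries, against 100% and 99.5% in Mmp3-negative libraries. Transcripts from the upstream starts together held 0.586% and 0.129% in Mmp3-positive libraries and 0.00369% and 0.158% in Mmp3-negative libraries, with overlapping groups. Gsn-201 and the upstream transcripts share most of their sequence. Of its 2623 windows of 31 bases, 223 (8.50%) were in none of the upstream transcripts, and of the 2577 windows of Gsn-205, 177 (6.87%) were absent from Gsn-201. No window of Gsn-201 occurred in another gene.

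The bases around the upstream and downstream starts are shown since the counts differed so far between them. Each stretch holds 200 bases before and the first 20 transcribed bases, in capitals, of a RefSeq transcript (GRCm38.p6, plus strand). The upstream stretch is chr2:35256159-35256378 and the downstream one is chr2:35282180-35282399.
Gsn upstream start: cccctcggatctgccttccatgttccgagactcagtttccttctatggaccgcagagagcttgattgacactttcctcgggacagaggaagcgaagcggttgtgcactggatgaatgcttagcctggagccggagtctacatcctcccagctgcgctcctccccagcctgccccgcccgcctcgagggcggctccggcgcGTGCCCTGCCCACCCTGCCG
Gsn downstream start: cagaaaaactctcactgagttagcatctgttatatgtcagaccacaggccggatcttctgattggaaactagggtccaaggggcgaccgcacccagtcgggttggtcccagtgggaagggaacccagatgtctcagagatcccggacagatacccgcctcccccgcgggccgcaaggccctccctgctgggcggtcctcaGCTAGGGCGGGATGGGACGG

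Enc1 (chr13:97241105-97253034, plus strand) had the largest fold of the 10. Its level was 280.4 and 305 CPM in Mmp3-positive libraries, against 152 and 156 CPM in Mmp3-negative libraries, with a wide gap between the groups and little spread within them. It averaged 293 ± 17.5 CPM in Mmp3-positive cells and 154 ± 2.78 CPM in Mmp3-negative cells (SD, n = 2 each), a 1.90-fold difference and a log2 fold change of 0.93 (SE 0.17). The deposited tables held 1 matched transcript of the gene, 4737 bases long with 1767 coding bases. None of its windows of 31 bases occurred in another gene among the transcripts matched to GENCODE M21. Listed transcripts without a match were not searched. Gsn stood at 69.2 and 68.2 times the TPM of Enc1 in Mmp3-positive libraries, against 71.7 and 89.1 times in Mmp3-negative libraries.

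By pattern over the 4 libraries, the genes nearest to Gsn among 5214 well-measured protein-coding genes were Tmed10, a cargo receptor of the early secretory pathway, Lypla2, an acyl-protein thioesterase, and Pdgfrb, the beta receptor for platelet-derived growth factor. Their log2 levels, centred on each gene's mean, differed from those of Gsn by a root mean square of 0.0211, 0.0254 and 0.0335. Pdgfrb, which is also a stromal and pericyte marker, had 934 and 995 CPM in Mmp3-positive libraries and 522 and 619.7 CPM in Mmp3-negative libraries. The genes nearest to Enc1 were Ap2s1, a subunit of the clathrin adaptor AP-2 (0.0353), Mllt10, a chromatin-binding protein (0.0387), and Ddx56, a nucleolar RNA helicase (0.0649). With 4 libraries in 2 groups many genes share such a pattern, and the likeness is a description.

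Actb and Actg1, the cytoplasmic actins, lay in the same direction but not to the same degree. Actb (chr5:142903115-142906754, minus strand) had 3452 and 3489.9 CPM in Mmp3-positive libraries, against 2511 and 2425 CPM in Mmp3-negative libraries. That was 3471 ± 26.9 CPM in Mmp3-positive cells and 2468 ± 60.8 CPM in Mmp3-negative cells (SD, n = 2 each), a 1.41-fold difference and a log2 fold change of 0.49 (SE 0.13). Actg1 (chr11:120345690-120348542, minus strand) had 1109 and 982 CPM in Mmp3-positive libraries, against 892 and 856 CPM in Mmp3-negative libraries, with a narrower gap. The difference was 1.20-fold, a log2 fold change of 0.26 (SE 0.14), and with an offset for transcript length it was 0.042. The ratio of Actb to Actg1 in TPM was 3.67 and 4.52 in Mmp3-positive libraries and 2.84 and 3.30 in Mmp3-negative libraries. That ratio leaned on short transcripts of both genes. Full-length Actg1-202 held only 34% and 30% of Actg1 TPM in Mmp3-positive libraries and 32% and 29.5% in Mmp3-negative libraries. As a ratio of counts, which is not corrected for length, it was 3.11 and 3.55 against 2.82 and 2.83. Either ratio was higher in both Mmp3-positive libraries.

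The coding sequences of the leading transcripts, Actb-201 and Actg1-202, were identical at 1000 of 1128 bases (88.7%) with their stop codons. Their first 90 coding bases are printed because reads must tell these genes apart, with the 16 differing bases in capitals. They are at chr5:142905597-142905686 and chr11:120348002-120348091, both on the minus strand.
Actb-201: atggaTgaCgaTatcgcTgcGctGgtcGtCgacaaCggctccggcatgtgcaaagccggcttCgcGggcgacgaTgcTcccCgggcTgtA
Actg1-202: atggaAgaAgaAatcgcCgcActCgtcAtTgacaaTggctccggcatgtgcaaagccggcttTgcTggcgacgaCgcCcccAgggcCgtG
Only 5.61% of the windows of 31 bases of Actb-201 occurred in a transcript of Actg1, and 5.52% of those of Actg1-202 in one of Actb. Sharing with other genes was wider. Of the windows of Actb-201, 35.2% occurred in another gene, most often Lrrc58 (22.7%), and of those of Actg1-202, 57.1% did, most often the pseudogene Gm12715 (53.6%). Lrrc58 itself had 40.4 and 63.4 CPM in Mmp3-positive libraries, against 63.4 and 75 CPM in Mmp3-negative libraries, and Gm12715 had 0 and 0 CPM against 0.270 and 0 CPM. Adding Lrrc58 to Actb gave 3492 and 3553 CPM in Mmp3-positive libraries and 2575 and 2500.4 CPM in Mmp3-negative libraries. The sum thus kept the order of the groups, and it does not depend on how reads were split between Actb and Lrrc58. Other genes that share windows with Actb were not added.

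Transcript shares of the actins varied between libraries. Actb-201, the full-length transcript, held 60.1% and 57.4% of Actb counts in Mmp3-positive libraries and 65.8% and 52.9% in Mmp3-negative libraries, and the non-coding Actb-206 held 21.7% and 25.5% against 23.3% and 21%. Actg1-206, annotated as a target of nonsense-mediated decay, held 30.7% and 40.7% of Actg1 counts in Mmp3-positive libraries but 20.7% and 1.87% in Mmp3-negative libraries. The groups did not overlap in that share, yet the Mmp3-negative libraries differed from each other by more than the nearest libraries of the groups did, and 87.7% of the windows of 31 bases of Actg1-206 occurred in another gene.

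The filament cross-linkers divided. Actn1 (chr12:80167547-80260371, minus strand) had 516 and 488 CPM in Mmp3-positive libraries, against 362 and 389.8 CPM in Mmp3-negative libraries, without overlap. It averaged 502 ± 20.1 CPM in Mmp3-positive cells and 376 ± 19.5 CPM in Mmp3-negative cells (SD, n = 2 each), 1.33-fold apart, with a log2 fold change of 0.42 (SE 0.15). Actn4 (chr7:28893248-28962340, minus strand), the other non-muscle alpha-actinin, had 717 and 692 CPM in Mmp3-positive libraries and 634 and 703 CPM in Mmp3-negative libraries. Its groups overlapped, and the log2 fold change of 0.08 (SE 0.15) turned to -0.12 with the length offset and -0.0028 without Mmp3-negative replicate 1. The count of Actn1 as a ratio to that of Actn4, which is not corrected for length and is read only between libraries, was 0.720 and 0.705 in Mmp3-positive libraries and 0.571 and 0.554 in Mmp3-negative libraries. Flna (chrX:74223461-74249820, minus strand) had 1756 and 1627 CPM in Mmp3-positive libraries, against 1741 and 1605 CPM in Mmp3-negative libraries, and the groups lay on top of each other. Its log2 fold change was 0.02 (SE 0.14), and its sign turned in 5 of 10 alternatives.

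Among the transcripts of Actn1, Actn1-202 held 64.6% and 54.4% of the counts of the 2 coding transcripts in Mmp3-positive libraries, against 71.0% and 89.6% in Mmp3-negative libraries. The groups did not overlap, but the Mmp3-negative libraries differed from each other by more than the nearest libraries of the groups did. Of the windows of 31 bases, 3.61% of those of Actn1-202 were absent from the other coding transcript, and 31.5% of those of the other were absent from Actn1-202.

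Tpm4 (chr8:72134975-72153142, plus strand) had 657 and 698 CPM in Mmp3-positive libraries, against 528 and 512 CPM in Mmp3-negative libraries, again without overlap. It averaged 678 ± 29.2 CPM in Mmp3-positive cells and 520.5 ± 11.3 CPM in Mmp3-negative cells (SD, n = 2 each), 1.30-fold apart, with a log2 fold change of 0.38 (SE 0.14). That value was 0.78 with the length offset and 1.03 on the log2(TPM + 1) scale, where the median of all genes was 0.29. The short non-coding Tpm4-202 (359 bases) moved with it, at 10.7% and 11.6% of the gene's counts in Mmp3-positive libraries and 8.26% and 4.06% in Mmp3-negative libraries. By TPM that transcript held 54.4% and 57% of the gene against 48.1% and 30.3%. A pseudogene, Gm7809, held 16.5% of the windows of 31 bases of the full-length coding transcript and drew at most 1.90 CPM in a library.

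Vim (chr2:13573927-13582826, plus strand) had 2883 and 3441 CPM in Mmp3-positive libraries and 2588 and 2892 CPM in Mmp3-negative libraries. The groups overlapped by a narrow margin, with a log2 fold change of 0.21 (SE 0.15). Over transcripts annotated with a retained intron, the share of Vim counts was 55.8% and 56.8% in Mmp3-positive libraries and 51.7% and 58.3% in Mmp3-negative libraries. Vim-203, of 535 bases, alone held 47.4% and 42.6% of the gene's TPM in Mmp3-positive libraries and 34.8% and 42.3% in Mmp3-negative libraries, so the TPM of Vim given above leaned on a short annotated fragment.

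Lmna (chr3:88480147-88509956, minus strand) had 999.8 and 1089 CPM in Mmp3-positive libraries, and both lay between the Mmp3-negative libraries, at 745 and 1189 CPM. The log2 fold change was 0.11 (SE 0.24), the widest error of the 10, and it was -0.19 without Mmp3-negative replicate 1 and 0.49 without Mmp3-negative replicate 2. Lmna yields lamin A and, by a different 3' end, lamin C. Lmna-201 encodes lamin A and Lmna-203 lamin C. In every library more counts and more TPM were assigned to the lamin C transcript than to the lamin A one. Of the counts of these transcripts, Lmna-203 held 88.3% and 87.4% in Mmp3-positive libraries, both inside the range of 90.9% and 77.2% in Mmp3-negative libraries. Lamin A made up the rest, 11.7% and 12.6% against 9.05% and 22.8%. Of the windows of 31 bases, 39.9% of those of Lmna-201 and 5.63% of those of Lmna-203 were absent from the other transcript. Once all Lmna transcripts are considered, neither had a window of its own, so the split was inferred from shared windows and is uncertain.

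**Figure D3:**
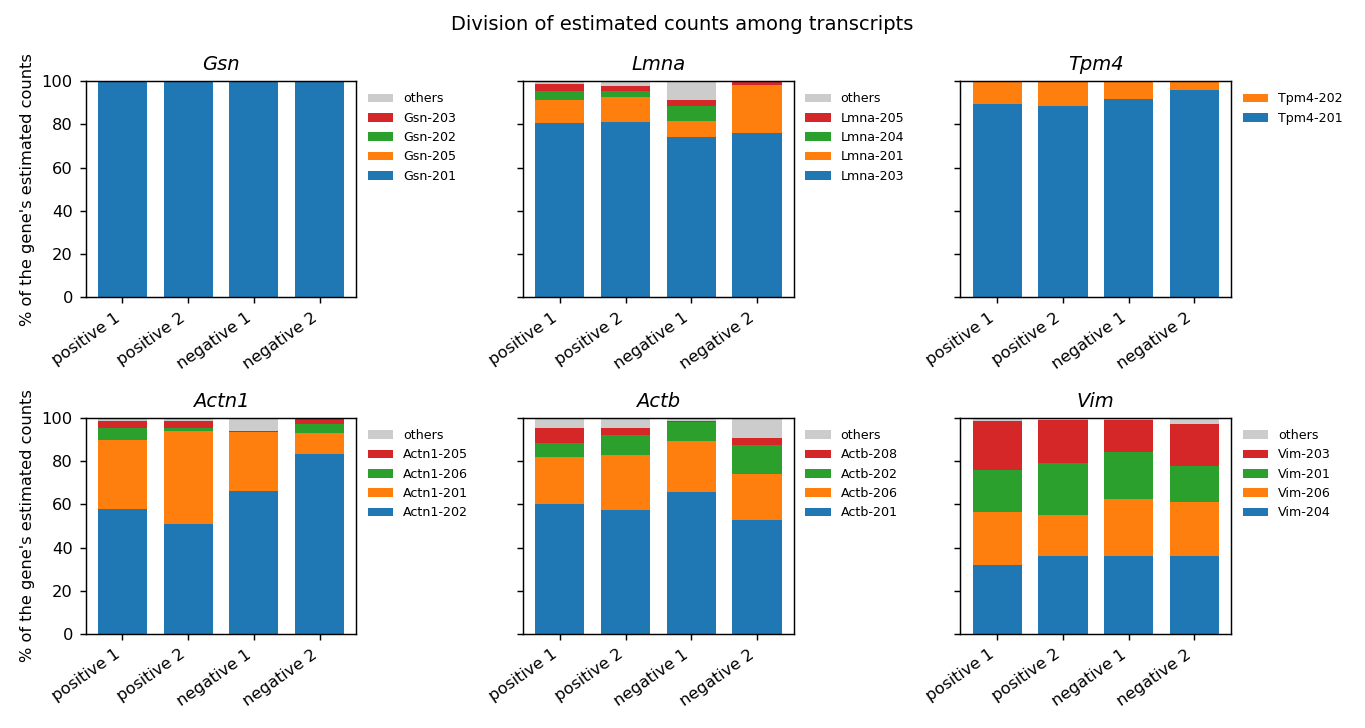
Stacked bars give each transcript's percent of the estimated counts of its gene in the 4 libraries, Mmp3-positive on the left, for Gsn, Lmna, Tpm4, Actn1, Actb and Vim. Gsn-201 fills 99.4% or more of each bar, and the share of Actn1-202 in Actn1 counts differs between the Mmp3-negative libraries (66.2% and 83.3%).

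Promoter windows, 250 bases before to 50 after a RefSeq start (GRCm38.p6), were at hand for 8 of the 10 genes in 11 windows, with none for Enc1 and Actb. They were searched on both strands for the CArG box, the sequence that SRF binds, and for TATAAA. A CArG box occurred in 1 of the 11, that of Actg1, where 1.63% of all 32851 windows held one (535). TATAAA occurred in 1 of the 11, that of Vim, against 13.6% of all windows. The bases before the first annotated start of Actg1 are printed with the CArG box in capitals (chr11:120348543-120348745, minus strand). A match is a description of letters and not of binding.
Actg1 promoter: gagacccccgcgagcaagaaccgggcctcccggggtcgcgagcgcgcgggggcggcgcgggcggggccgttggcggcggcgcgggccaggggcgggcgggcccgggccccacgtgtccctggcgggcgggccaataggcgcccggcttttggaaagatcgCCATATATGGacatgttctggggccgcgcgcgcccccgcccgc

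The other genes of these pathways were taken from 12 lists by role, with 112 symbols of which 107 gene entries were tested. By edgeR 0 were called higher and 0 lower, the smallest adjusted p being 0.255, for Nes. At an unadjusted p under 0.05 there were 7 higher and 9 lower, against 5.62% and 3.25% of all genes, and DESeq2 called 7 higher and 10 lower, against 5.46% and 4.18%. With edgeR, leaving out Mmp3-negative replicate 1 gave 1 call higher (Capza1) and 2 lower (Des and Nes), and leaving out Mmp3-negative replicate 2 gave 1 higher (Capza1) and 4 lower (Acta2, Des, Myl9 and Nes). The groups did not overlap for 20 entries that were higher (18.7%) and 23 that were lower (21.5%) in Mmp3-positive cells, near the 22.5% and 17.3% of all genes. The median log2 fold change of the 107 was 0.02, the same as over all genes. Without the 4 genes that also stand among the pericyte and smooth muscle markers, 20 of 103 were higher and 20 lower, with a median of 0.04. All values of single genes that follow have an adjusted p of 0.255 or more by edgeR.

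**Figure D4:**
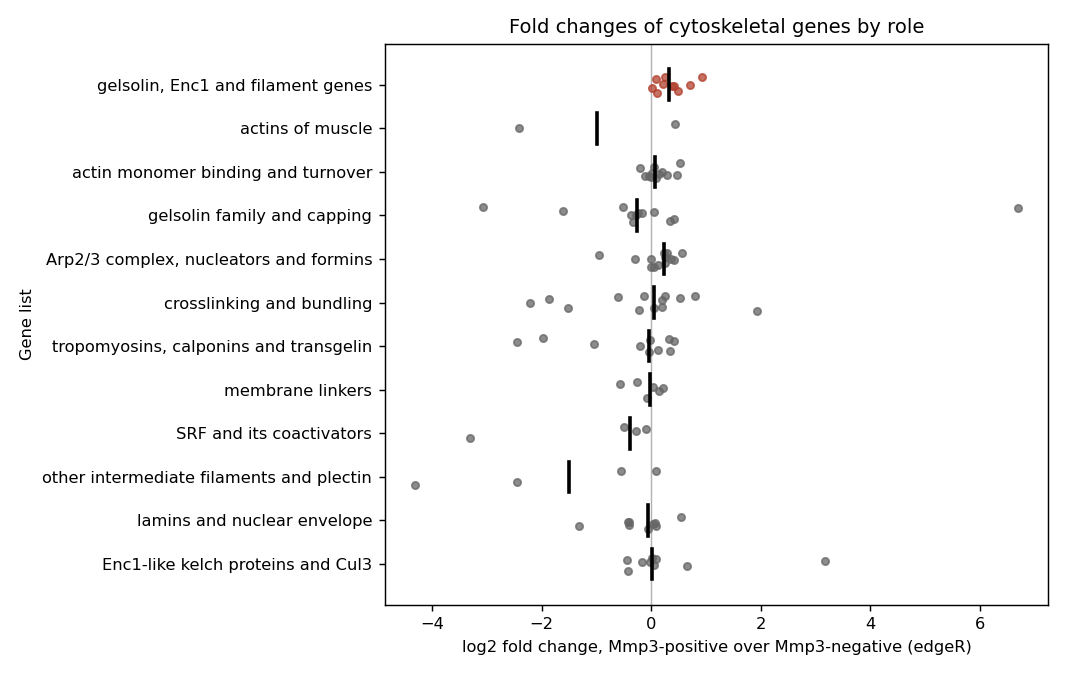
Log2 fold changes (edgeR, Mmp3-positive over Mmp3-negative) of the 10 genes, in red, and of 11 of the 12 pathway lists, in grey, with 1 point per gene and a bar at each list's median. Of the genes in these 11 lists, Krt8 and Krt19, listed at 0 in every library of 1 group, are left out as points but counted in the medians, and the medians of the 10 genes and of all 107 pathway entries are 0.32 and 0.02.

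Genes that supply and turn over actin monomers showed no split between the groups except in 1 case, with a median of 0.08 over 12 genes. Tmsb10, a thymosin that sequesters monomers, had 254 and 209 CPM in Mmp3-positive libraries, against 192 and 130 CPM in Mmp3-negative libraries, a log2 fold change of 0.52. Pfn1, profilin, which loads monomers onto growing ends, had 359.7 and 349 CPM against 433 and 272 CPM.

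The relatives of gelsolin lay in both directions. Over the 12 genes of the gelsolin family and of filament capping, the median log2 fold change was -0.26, with 3 separated upward and 3 downward. Capg, a gelsolin relative that caps without severing, had 213 and 237 CPM in Mmp3-positive libraries, inside the range of 185 and 320 CPM in Mmp3-negative libraries. Svil, supervillin, had 296 and 308 CPM against 224 and 252 CPM, a log2 fold change of 0.34. Of the capping protein subunits, Capzb had 187 and 167 CPM against 251 and 193 CPM, whereas Capza1 had 19.1 and 16.2 CPM against 0.324 and 0 CPM. That was 6 and 0 estimated counts in the Mmp3-negative libraries. The log2 fold change of Capza1, 6.70 (SE 2.10), was 3.75 with the length offset and 2.98 on the log2(TPM + 1) scale. Whether its reads were shared with other genes was not examined. Add1, an adducin that caps filament ends at the membrane, had 124 and 136 CPM against 154 and 152 CPM.

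Of 14 genes of branched nucleation and the formins, 4 were separated upward and 2 downward, with a median of 0.24. Wasf2, a WAVE protein that activates the Arp2/3 complex, had 189.9 and 199 CPM in Mmp3-positive libraries, against 136 and 127 CPM in Mmp3-negative libraries, a log2 fold change of 0.56 that was -0.035 with the length offset. Cttn, cortactin, which steadies the branches, had 292 and 287 CPM against 179.8 and 269 CPM, and its log2 fold change of 0.37 turned to -0.32 with the length offset and -0.07 on the log2(TPM + 1) scale. Arpc1b, a subunit of the complex, overlapped, with 428 and 419.7 CPM against 469.6 and 253 CPM. Diaph2, a formin that builds unbranched filaments, lay the other way, with 45.1 and 48.9 CPM against 101 and 80.8 CPM and a log2 fold change of -0.95.

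Among 13 further cross-linking and bundling genes the counts were 4 upward and 3 downward, and the median was 0.06. Fscn1, fascin, which packs filaments into tight bundles, had 278 and 277 CPM in Mmp3-positive libraries, against 175 and 144 CPM in Mmp3-negative libraries, a log2 fold change of 0.80. Palld, palladin, a scaffold that binds alpha-actinin, had 42.3 and 27.2 CPM against 9.39 and 8.71 CPM, a log2 fold change of 1.94 that was 1.02 with the length offset and 1.20 on the log2(TPM + 1) scale. Pdlim7, a LIM-domain partner of tropomyosin and actinin bundles, had 122 and 89.0 CPM against 169 and 152 CPM. Lasp1, an actin-binding protein of the cell edge, overlapped, at 335 and 311 CPM against 317 and 387 CPM.

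Genes of contraction lay in both directions. Over 10 tropomyosin, calponin and transgelin genes 2 were separated upward and 2 downward (median -0.04). Cald1, caldesmon, had 1145 and 1131 CPM in Mmp3-positive libraries, against 807 and 899 CPM in Mmp3-negative libraries, a log2 fold change of 0.42. Myh9, the heavy chain of non-muscle myosin IIA, had 3768 and 3654 CPM against 2943 and 3498 CPM. Tpm3 overlapped, at 364 and 387 CPM against 289 and 399 CPM, and so did the light chain Myl6, at 290.1 and 225 CPM against 238 and 240.1 CPM. Of the genes known from smooth muscle, some were lower in both Mmp3-positive libraries and others were not. Acta2, smooth muscle alpha-actin, had 20.5 and 6.11 CPM against 86.4 and 54.8 CPM, a log2 fold change of -2.41 that was -3.53 without Mmp3-positive replicate 1 and -1.79 without Mmp3-positive replicate 2. Tagln, transgelin, had 12.6 and 9.37 CPM against 50.9 and 35.2 CPM (-1.97, or -1.31 with the length offset), and Tpm2 had 38.5 and 19.6 CPM against 75.1 and 44.8 CPM (-1.05, or -1.77 with the length offset). Myl9, a smooth muscle myosin light chain, was at 0 in both Mmp3-positive libraries, against 35.8 and 11.8 CPM. The mean of the Mmp3-negative libraries was 153-fold above the level that 3 counts would give in a Mmp3-positive library. Cnn1, calponin, overlapped, at 0 and 1.93 CPM against 0 and 10.6 CPM, and so did Tpm1, at 160.2 and 134 CPM against 185 and 117 CPM. Acta2, Tagln and Cnn1 are themselves among the 12 pericyte and smooth muscle markers, 9 of which were separated downward, against 17.3% of all genes, and whose sums were 102 and 98 CPM against 772 and 689 CPM, and the part of those cells in the result was not tested. Of the muscle actins 2 were tested, with 0 separated upward and 1 downward and a median of -0.98. Acta1, of skeletal muscle, was at 0 in 1 library of each group (0 and 7.13 CPM against 0 and 5.25 CPM).

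The links from filaments to the membrane gave 1 gene upward and 2 downward of 6, with a median of -0.02. Tln1, talin, which couples integrins to actin, had 982 and 1038 CPM in Mmp3-positive libraries, against 829.6 and 919.9 CPM in Mmp3-negative libraries. Ezr, ezrin, had 90.1 and 107 CPM against 150.3 and 142 CPM, a log2 fold change of -0.56. Zyx, zyxin of focal adhesions, overlapped, at 319 and 341 CPM against 418 and 278 CPM. Srf, the transcription factor that reads actin dynamics through its coactivators, had 112 and 83.4 CPM against 139 and 97.2 CPM, and Mrtfa had 146 and 97.3 CPM against 137 and 123 CPM, both overlapping. Of these 4 genes 0 were separated upward and 2 downward, with a median of -0.38. Mrtfb (86.2 and 82.9 CPM against 138 and 98.3 CPM) and the muscle-restricted coactivator Myocd (1.74 and 0.204 CPM against 11.7 and 7.67 CPM) were separated downward, Myocd again beside the smooth muscle markers.

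Intermediate filament genes other than Vim had the lowest median of the 12 pathway lists, -1.50 over 6 genes, with 1 separated upward and 3 downward. Nes, nestin, had 16.8 and 17.6 CPM in Mmp3-positive libraries, against 94.4 and 94.0 CPM in Mmp3-negative libraries, and Des, desmin, had 2.0 and 4.28 CPM against 55.7 and 68.9 CPM. Their log2 fold changes were -2.45 and -4.31 (for Des -4.96 without Mmp3-positive replicate 2), with adjusted p of 0.255 and 0.332 by edgeR, and without the count filter the adjusted p was 0.0174 and 0.0150. Both are known from pericytes, and Des is one of the pericyte and smooth muscle markers, whose part here was not tested. Plec, plectin, the linker between filament systems, overlapped, at 4066 and 4774 CPM against 4042 and 4269.9 CPM. Of the keratins, Krt19 had 6.05 and 2.70 CPM in Mmp3-positive libraries and was listed at 0 in both Mmp3-negative ones, and Krt8 was at 0 in both Mmp3-positive libraries against 1.03 and 3.46 CPM.

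Around the nucleus, 1 of 9 genes was separated upward and 2 downward, with a median of -0.05. Lmnb1, lamin B1, had 93.1 and 137 CPM in Mmp3-positive libraries, against 65.3 and 92.6 CPM in Mmp3-negative libraries. The nesprins Syne1 and Syne2, which tie the nucleus to actin, had 132 and 87.1 CPM against 154 and 141 CPM, and 209.7 and 254 CPM against 313 and 304 CPM. Sun1, their partner in the envelope, overlapped, at 83.1 and 111 CPM against 98.7 and 84.0 CPM.

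Among the kelch-repeat relatives of Enc1 and Cul3, 1 of 9 was separated, upward, and the median was 0.02. That gene was Klhl12, a Cul3 adaptor, with 17 and 25.4 CPM in Mmp3-positive libraries, against 2.10 and 2.59 CPM in Mmp3-negative libraries, a log2 fold change of 3.17 (SE 1.05). Keap1, the adaptor that controls the oxidative stress factor Nrf2, had 68.9 and 61.3 CPM against 65.9 and 108 CPM, and Klhl2, an actin-binding relative, had 26.2 and 27.7 CPM against 30.8 and 22.5 CPM, both overlapping.

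The size of the differences among the 10 genes varied with how the counts were scaled and with which library was left out. Enc1 ranged from 0.86 to 1.20, Gsn from 0.56 to 1.01, Actb from 0.44 to 0.70 and Actn1 from 0.30 to 0.54 on the log2 scale. All were above 0 in 10 of 10 alternatives, as were Tpm4 (0.33 to 1.03), Actg1 (0.042 to 0.34) and Vim (0.069 to 0.57). The median of all genes was itself 0.29 on the log2(TPM + 1) scale and 0.17 without either Mmp3-negative library. Against these medians, Actg1 was no higher on the log2(TPM + 1) scale (0.29), and Vim was lower without Mmp3-negative replicate 1 (0.12). The values of Flna, Actn4 and Lmna fell on both sides of 0. TPM values were affected by the pseudogenes Gm12895 and Gm12896, which held 10.6% and 16.8% of all TPM in Mmp3-positive libraries and 39.9% and 5.59% in Mmp3-negative libraries. The TPM of every other gene is scaled down where that share is high, so levels were compared between libraries in counts, and in TPM only as ratios or shares within a library. The exception is the fit on log2(TPM + 1), which gave the upper ends of the ranges of Enc1, Gsn, Actb, Actn1, Tpm4 and Vim.

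**Figure D5:**
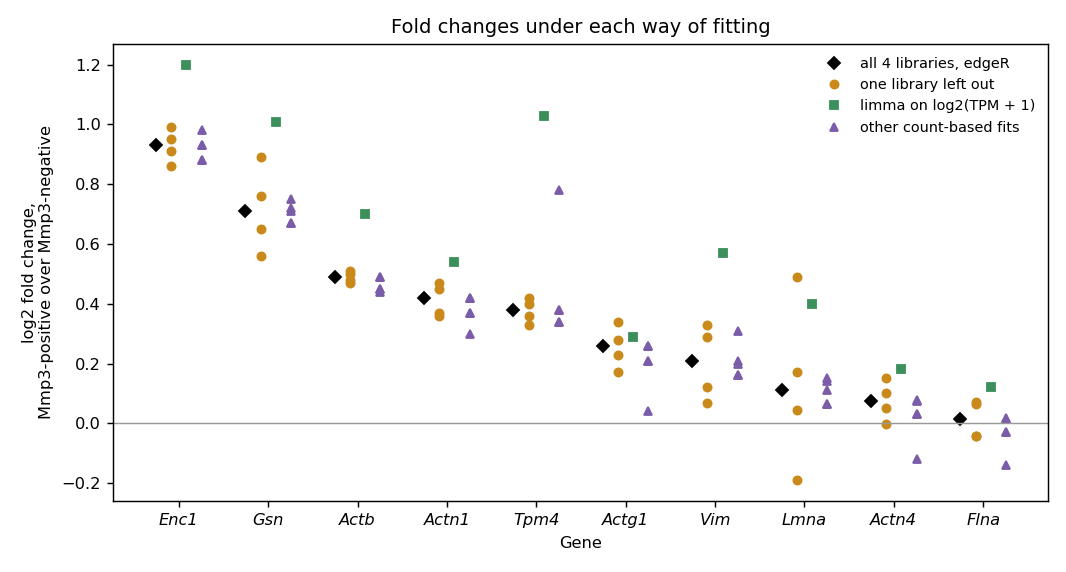
Log2 fold changes of the 10 genes (Mmp3-positive over Mmp3-negative) with all 4 libraries in edgeR (black), with 1 library left out (orange), with limma on log2(TPM + 1) (green) and with other count-based fits (purple). Enc1 stays between 0.86 and 1.20, whereas the values of Lmna, Actn4 and Flna lie on both sides of 0.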

How the data were processed

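Per the labels' protocols, a kit for fixed, embedded tissue was used to extract RNA, and strand-specific libraries were made after depletion of ribosomal RNA. Per the submitters' processing notes, the authors used kallisto 0.45.0 and GRCm38; strand setting, trimming and transcript set are not given in the sources used here. The deposited tables held an estimated count and a TPM value (a level per length, scaled to a common total), per the file headers, and listed 115270 transcripts in every library. kallisto divides reads among similar transcripts, so values of near-identical transcripts are uncertain.

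Transcripts were matched to GENCODE M21 (113580 matched, 35580 genes; the unmatched held 0.809% and 0.995% of counts in Mmp3-positive and 2.08% and 0.729% in Mmp3-negative libraries). For each gene the estimated counts of its transcripts were added up and rounded. Genes were kept by filterByExpr (minimum count 10), scaled by TMM and tested with edgeR 4.0.16 (R 4.3.3) by its quasi-likelihood test, two-sided, without a covariate, with Benjamini-Hochberg adjustment over 14185 genes and a threshold of 0.05. CPM are TMM-normalised. TPM were summed per gene. Alternatives were the Wald test of DESeq2 1.42.0, its size factors with the edgeR test, dropping the count filter, a replicate block, a transcript length offset, limma 3.58.1 on log2(TPM + 1), and leaving out each library. The fit left 2 residual degrees of freedom, and the number of libraries limits its precision. The fitting code was tested on simulated data. Windows of 31 bases were taken from the matched GENCODE M21 transcripts alone, and promoters from RefSeq (GRCm38.p6).

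The 10 genes, the 12 pathway lists and the 5 marker lists were chosen with earlier results of these data known. Named genes were the 10, Mmp3, the 2 genes of each pathway list with the highest mean TPM, and pathway genes whose groups did not overlap; Mkl1, Mkl2 and Enc2 were not among the gene symbols, and not every gene or list the rule allows is printed. Nearest patterns were taken over protein-coding genes with an average logCPM of at least 5. Other genes named (Cnn1, Tpm1, Lrrc58, Gm12715, Gm7809, Gm12895 and Gm12896, and single marker genes) were chosen after their values were seen. Python 3.11.15, pandas 2.3.3 and matplotlib 3.10.9 were used for sums and plots.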

Additional observations from a re-analysis of the deposited data

How the results depend on the processing

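All genes called higher numbered 1 with all 4 libraries, 4 without a count filter, 775 by the DESeq2 Wald test, 0 with limma on log2(TPM + 1), and 1 to 237 with 1 library left out. All genes called lower numbered 2, and 23 without a filter, 593 by DESeq2, 4 with the replicate block, 0 with the length offset, 0 with limma, and 1 to 116 with 1 library left out. Of the 10 genes, 0 were called higher with all libraries, 5 by DESeq2 and 0 to 2 with 1 library left out, and 0 were lower throughout. Pathway genes called higher were 0, 7 by DESeq2 and 0 to 1 with 1 library left out; those lower were 0, 2 without a filter, 10 by DESeq2 and 0 to 4 with 1 library left out. The high counts came without either Mmp3-negative library, where the remaining one was taken to vary as the Mmp3-positive ones did. The replicate block moved the calls lower from 2 genes to 4 and called 0 of the 10. The labels give each library a set number, the same numbers in both groups, without saying what a set is. Across the genes tested, the difference between replicates 1 and 2 correlated by 0.0261 between the groups. The numbers were not taken as pairs in the main fit, though a low correlation cannot exclude pairing. The median over all genes was 0.02, but 0.29 with limma on log2(TPM + 1), 0.12 with the block and 0.17 without either Mmp3-negative library, and fold changes in those fits are relative to that. The summed share of the 10 genes was 0.62 percentage points higher in Mmp3-positive cells, and 0.542 to 0.699 under its alternatives. The 10 genes were chosen on this contrast, so their calls and their share are a description. The leading transcript held over 50% of its gene in every library for 4 of the 10 genes by TPM and 6 by counts. Where a result changed, the cause was not tested.

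Over 53 results and 530 values, 456 kept direction and side of the threshold, 34 passed it in addition, 1 no longer did (Mmp3 with limma, 5.27, adjusted p 0.347) and 39 turned sign, most of them near 0. Flna was -0.03 with DESeq2 size factors and with the Wald test and -0.14 with the length offset, and spanned -0.041 to 0.07 with 1 library left out. Actn4 was -0.12 with the length offset and -0.0028 to 0.15 with 1 library left out, where Lmna spanned -0.19 to 0.49. With size factors and with the Wald test Pfn1 was -0.038 and Klhl2 -0.031. With the length offset Cttn was -0.32, Tpm3 -0.10, Mrtfa 0.29, Sun1 -0.23, Klhl2 -0.043 and Wasf2 -0.035. With limma Capg was 0.13, Cttn -0.07, Zyx 0.23 and Mrtfa 0.54. With 1 library left out, the lowest and highest values of the others that turned were -8.59 to 9.09 (Acta1), -0.29 to 0.38 (Pfn1), -0.52 to 0.28 (Capg), -0.15 to 0.74 (Arpc1b), -0.27 to 0.027 (Lasp1), -0.092 to 0.38 (Tpm3), -0.088 to 0.27 (Myl6), -0.34 to 0.24 (Zyx), -0.51 to 0.003 (Srf), -0.42 to 0.16 (Mrtfa), -0.036 to 0.20 (Plec), -0.14 to 0.28 (Sun1) and -0.19 to 0.25 (Klhl2). Without a turn of sign, the length offset moved Tln1 (0.21) to 0.96, Syne2 (-0.41) to -1.84 and Pdlim7 (-0.61) to -1.32.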
